A study of Mus musculus with 6 samples.

Results

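The genes described are those of agrin (Agrn), perlecan (Hspg2), the nidogens (Nid1, Nid2) and 6 laminin chains (Lama1, Lama4, Lama5, Lamb1, Lamb2, Lamc1), which are non-collagen building blocks of the vascular basement membrane. They were chosen by gene symbol, and all 10 were found among the 22958 gene entries of the deposited tables. RNA had been sequenced from brain endothelial cells of mouse embryos (C57BL/6 x 129/Sv) sorted for CD31, the product of Pecam1, at E11.5 (embryonic day). The study compared 3 control libraries (Cdhrs5CreERT2:R26Axin1IL-/-, wildtype Axin1 expression) with 3 libraries overexpressing Axin1 (Cdhrs5CreERT2:R26Axin1IL+/-), a scaffold protein that helps to target beta-catenin for destruction. Cells of both groups carried the tamoxifen-inducible Cre, and all mothers had received tamoxifen at E9.5, so the groups differed by the Axin1 allele at the R26 locus. The labels number the libraries as biological replicates and give no litter or pool, so the p-values rest on the variation among these 6 libraries alone. Values per library are given in the order 1, 2, 3 of each group.

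A basement membrane is a thin sheet of matrix on which endothelial cells rest. Laminins are secreted as trimers of 1 alpha, 1 beta and 1 gamma chain and polymerise at the cell surface, where integrins and dystroglycan bind their alpha chains. Nidogens bridge the gamma1 chain to the collagen IV network, and the heparan sulphate proteoglycans agrin and perlecan attach to this scaffold and hold growth factors. In brain vessels the alpha4 and alpha5 chains are known as endothelial laminins, while the alpha1 and alpha2 chains are known from the outer, parenchymal basement membrane. Agrin is known for clustering acetylcholine receptors at the neuromuscular junction and also surrounds brain capillaries.

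Libraries held 10772492 to 14234409 reads assigned to genes. Axin1 itself read 25.0, 17.5 and 20.8 CPM (read counts scaled to library size with TMM factors) in the controls and 79.7, 62.1 and 66.1 CPM with overexpression, so its groups did not overlap and followed the labels. All 12 endothelial markers were detected, with a summed level of 9592 to 9622 CPM in the controls and 9582 to 10646 CPM in the Axin1 libraries. None of the 12 passed edgeR's test. At an unadjusted p under 0.05 edgeR had 2 higher and 1 lower (9.06% and 8.14% of all tested genes). DESeq2 called 1, higher (3.17% of all tested genes). Groups did not overlap for Cdh5 (control CPM 432 to 845, Axin1 CPM 923 to 980), Robo4 (417 to 465 and 485 to 587 CPM) and, in the lower direction, Esam (1204 to 1319 and 924 to 1081 CPM). Of all tested genes 11.3% did not overlap with the Axin1 libraries higher and 12.4% with them lower. Control 3 exceeded both other controls in 12 of 15 pericyte and mesenchyme markers, 10 of 12 neural markers and 9 of 9 erythroid markers. It did so in 5 of 10 platelet, 4 of 12 endothelial and 1 of 12 macrophage markers. None of 10 tested neural or 13 tested pericyte and mesenchyme markers passed the test of edgeR, also at an unadjusted p under 0.05, or that of DESeq2. The 12 neural markers summed to 2513 to 2997 CPM in the controls and 2684 to 3152 CPM with overexpression, most of it Vim, which endothelial cells express too. By the mean of log2(CPM + 1) over these 12, the controls stood at 3.05, 3.64 and 4.48 and the Axin1 libraries at 3.49, 3.92 and 4.06. For Agrn, Hspg2, Nid2 and the counts of genes called in the main lists, values with and without control 3 are given below.

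Each of the 10 genes was read in every library, but at levels that spanned more than 2 orders of magnitude per unit length. Levels of different genes are compared as the deposited RPKM (reads scaled to gene length and library size), which corrects for transcript length. In the controls Nid1 came first at 196 ± 23.0 RPKM (SD, n = 3 here and below), followed by Lamb1 at 134 ± 12.1, Nid2 at 121 ± 29.8 and Lama4 at 102 ± 12.5 RPKM. A middle tier held Agrn at 50.7 ± 4.70, Lamc1 at 40.7 ± 5.05 and Hspg2 at 16.6 ± 4.50 RPKM. Lama1 at 3.54 ± 0.97, Lamb2 at 3.18 ± 0.62 and Lama5 at 0.71 ± 0.17 RPKM formed the lowest tier.

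Some neighbours in this order could not be separated. The control ranges of Lamb1 and Nid2 overlapped, as did those of Nid2 and Lama4, of Agrn and Lamc1, and of Lama1 and Lamb2. Nid1 lay above Lamb1 in 6 of 6 libraries, Lamb1 above Nid2 in 4, and Nid2 above Lama4 in 6. Agrn lay above Lamc1 in the 3 controls and below it in the 3 Axin1 libraries. Lama1 lay above Lamb2 in 2 of 6 libraries. The control mean of Nid1 was higher than that of 97.5% of all gene entries and that of Lama5 higher than that of 49.1%.

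**Figure D1:**
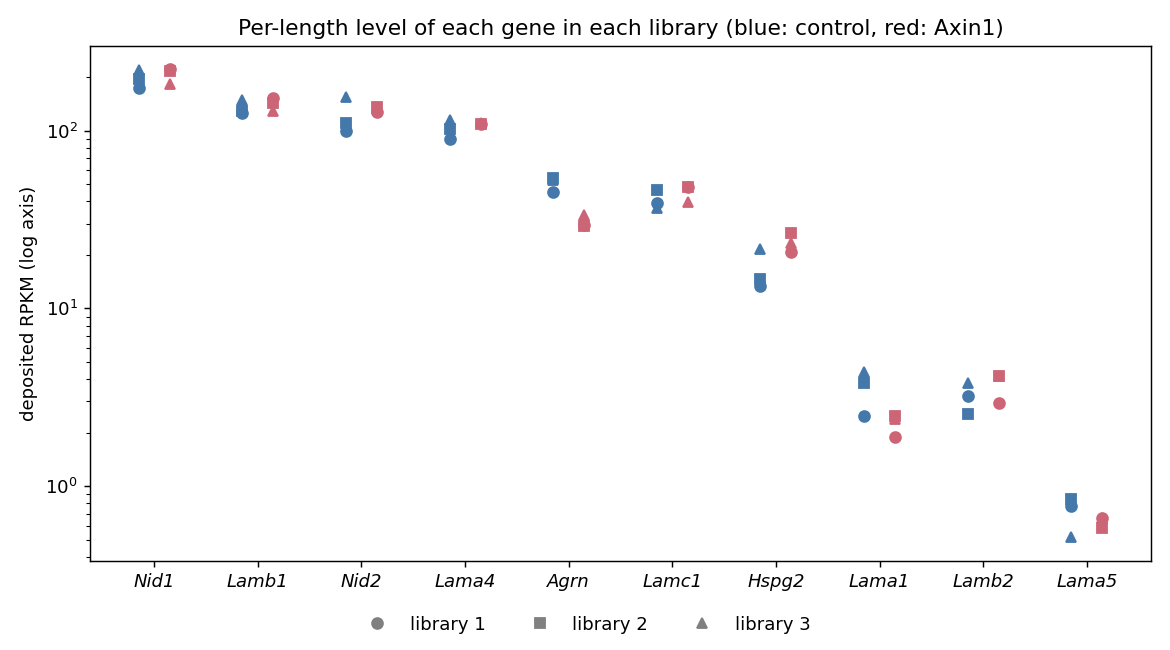
Deposited RPKM of the 10 genes (log axis) in the 3 control libraries (blue) and 3 Axin1 libraries (red), ordered by control mean; each symbol is 1 library. Nid1, Lamb1, Nid2 and Lama4 lie between 89.8 and 221 RPKM in every library, and Agrn is the gene among the upper 7 whose red symbols (29.2 to 33.6 RPKM) lie below the blue ones (45.3 to 54.1 RPKM).

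Agrn fell in the Axin1 libraries by 1.66-fold and was the one gene of the 10 to pass the test. It read 321, 373 and 360 CPM in the controls and 204, 197 and 233 CPM with Axin1 overexpression. Every Axin1 library lay below every control, and no library stood out within its group. The group levels were 351 ± 27.0 and 211 ± 18.9 CPM. The log2 fold change was -0.73 (SE 0.11, 95% confidence interval -0.99 to -0.48). The quasi-likelihood test of edgeR, Benjamini-Hochberg adjusted over all 12661 tested genes, gave an adjusted p of 0.038. As in any bulk sample, fewer cells of a type and less RNA per cell cannot be told apart. Counts do not separate the agrin isoforms that differ in their start site or in their receptor-clustering exons.

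The call for Agrn was close to the threshold and depended on which library was left out. Leaving out control 1, 2 or 3 gave edgeR adjusted p values of 0.104, 0.198 and 0.0143, and leaving out Axin1 library 1, 2 or 3 gave 0.077, 0.152 and 0.0632. The log2 fold change in these 6 fits lay between -0.81 and -0.69. With DESeq2 the adjusted p was 6.97e-06.

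The promoter of Agrn is shown because it was the one gene of the set that passed the test, in a study of a Wnt pathway component. Beside it stands that of Lama5, the other upstream window of the set at a gene's outer start that lies outside annotated exons. Sequences are RefSeq's, from GRCm38.p6, and give the 250 bases before the start site, 5′ to 3′ on the minus strand in both cases, with the TCF/LEF core motif in capitals.
Agrn, chr4:156197489-156197738: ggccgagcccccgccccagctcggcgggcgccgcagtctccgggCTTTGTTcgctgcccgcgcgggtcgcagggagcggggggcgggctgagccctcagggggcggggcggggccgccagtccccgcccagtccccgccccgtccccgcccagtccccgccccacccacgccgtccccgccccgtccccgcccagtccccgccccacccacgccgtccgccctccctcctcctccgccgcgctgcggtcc
Lama5, chr2:180225860-180226109: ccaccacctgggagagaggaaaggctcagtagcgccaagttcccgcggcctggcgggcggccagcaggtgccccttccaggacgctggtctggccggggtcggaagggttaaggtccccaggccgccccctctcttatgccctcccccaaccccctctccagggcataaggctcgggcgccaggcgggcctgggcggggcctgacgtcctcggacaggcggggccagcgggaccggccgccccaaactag
GENCODE M21, on the same build, places no gene over either stretch. The motif was searched on both strands as CTTTG followed by 2 bases that are each A or T, and no other motif was searched. Agrn holds 1 match, CTTTGTT, from 206 to 200 bases before the start, and Lama5 holds none. Of 7 windows matched to 6 of the 10 genes, the Agrn window shown was the one with a match, and a second Agrn window, at a start inside the gene, held none. At least 1 match stood in 14.8% of all 32851 promoter windows of that length. The Agrn stretch is 83.6% G and C with 35 CpG sites, and that of Lama5 is 72.4% with 19, against medians of 52.4% and 6 over all windows. These matches are descriptions of letters, and binding was not measured.

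Hspg2, which encodes the perlecan core protein, had the highest log2 fold change of the set but did not pass the test. It read 196, 210 and 307 CPM in the controls and 299, 371 and 333 CPM with Axin1 overexpression. Controls 1 and 2 lay below all Axin1 libraries, and control 3 lay above Axin1 library 1, so the groups overlapped. The log2 fold change was 0.49 (SE 0.18, 95% confidence interval 0.08 to 0.90, edgeR adjusted p 0.218; DESeq2 adjusted p 0.112). With control 3 left out the values were 0.71 and 0.0188, in a fit that called 5.37% of all tested genes against 0.845% with all libraries.

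Pericytes and mesenchymal cells also make basement membrane, so their markers are given beside Hspg2. The 15 markers summed to 61.9, 102 and 178 CPM in the controls and to 129, 206 and 165 CPM with Axin1 overexpression. The group ranges overlapped, and controls 1 and 2 had the lowest sums, as they had the lowest Hspg2 levels. Abcc9 alone gave 64.2 CPM of the sum in Axin1 library 1, against 24.5 and 34.9 CPM in controls 1 and 2. By the mean of log2(CPM + 1) over the 15 markers, control 2 (2.25) lay above Axin1 library 1 (2.20). Controls 1 and 2 both lay below all other libraries for 5 of 12 neural, 2 of 12 endothelial and 1 of 9 erythroid markers. This held for 0 of 12 macrophage and 0 of 10 platelet markers, and for 6 of the 15 pericyte and mesenchyme markers. Pdgfrb, the pericyte growth factor receptor and 1 of these 6, stood at 8.74, 11.49 and 26.4 CPM in the controls and 12.6, 23.1 and 18.9 CPM in the Axin1 libraries. The pericyte channel gene Kcnj8 went the other way, at 3.15, 3.29 and 6.61 CPM in the controls and 3.03, 2.06 and 1.47 CPM in the Axin1 libraries. Of the 13 tested markers 11 had positive log2 fold changes (median 0.58), as did 6648 of all 12661 tested genes (median 0.02). Of the 13, 0 passed edgeR's test, while Des and Twist1 were at 0 in control 1. The part of these cells in the Hspg2 values was not tested.

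**Figure D2:**
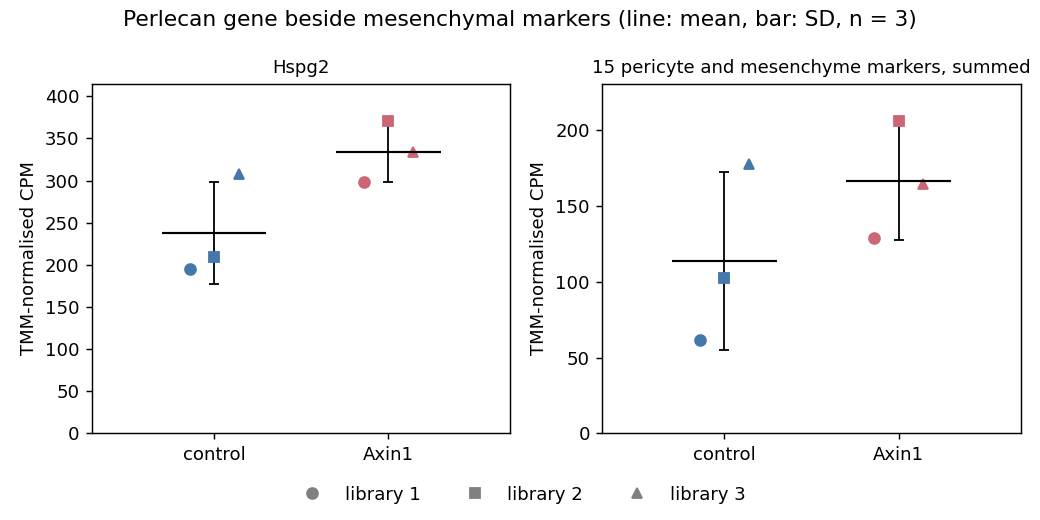
TMM-normalised CPM of Hspg2 (left) and of 15 pericyte and mesenchyme markers summed (right), with 1 symbol per library, the group mean as a line and the SD as a bar (n = 3 each). Controls 1 and 2 are the lowest libraries in both panels, at 196 and 210 CPM on the left and 61.9 and 102 CPM on the right. Abcc9 makes up 64.2 CPM of the sum in Axin1 library 1.

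Neither nidogen gene passed the test. Nid1 read 1050, 1157 and 1282 CPM in the controls and 1307, 1256 and 1085 CPM with Axin1 overexpression. Its groups overlapped over most of their range, with a log2 fold change of 0.06 (95% confidence interval -0.20 to 0.33, edgeR adjusted p 0.823). Nid2 read 461, 500 and 698 CPM in the controls and 581, 605 and 600 CPM with Axin1 overexpression. Control 3 was the highest library for Nid2, and the 3 Axin1 libraries lay between it and the other controls (log2 fold change 0.11, 95% confidence interval -0.24 to 0.46, edgeR adjusted p 0.772). With control 3 left out, the log2 fold change of Nid2 became 0.30 (edgeR adjusted p 0.159). The intervals with all libraries allow changes of up to 1.26-fold higher for Nid1 and 1.37-fold higher for Nid2. In the reference annotation, exons of Nid1 share 143 bases with the antisense gene Gm48682 and those of Nid2 share 437 bases with Rtraf on the opposite strand, and the strand setting of the counting is not given in the sources used here.

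Among the laminin alpha chains the 2 low genes had negative log2 fold changes, and the dominant one had a value near 0 whose sign turned with a correction for transcript length. Lama1 read 24.4, 36.3 and 41.6 CPM in the controls and 18.2, 23.4 and 23.1 CPM with Axin1 overexpression. All Axin1 libraries lay below all controls, though control 1, at 24.4 CPM, was close to the highest of them. The log2 fold change was -0.66 (SE 0.22, 95% confidence interval -1.16 to -0.16). By edgeR the adjusted p was 0.182 and the unadjusted p 0.0154. It kept its sign in 15 of 15 alternatives and passed the threshold in 0 of them (adjusted p 0.0836 to 0.417).

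Lama4 read 562, 622 and 694 CPM in the controls and 665, 647 and 678 CPM with Axin1 overexpression. The Axin1 libraries lay within the range of the controls (log2 fold change 0.08, 95% confidence interval -0.16 to 0.33, edgeR adjusted p 0.737). Lama5, read with 64 to 127 counts per library, read 9.18, 9.73 and 5.88 CPM in the controls and 7.66, 6.54 and 7.69 CPM with Axin1 overexpression. Control 3 was the lowest library and the other controls the highest. The log2 fold change of Lama5 was -0.18, and its interval of -0.79 to 0.43 was the widest of the set and reached up to 1.34-fold higher (edgeR adjusted p 0.777).

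The beta and gamma chains did not pass the test either. Lamb1 read 753, 746 and 853 CPM in the controls and 888, 819 and 755 CPM with Axin1 overexpression, with groups that overlapped over nearly their whole range (log2 fold change 0.07, 95% confidence interval -0.18 to 0.31, edgeR adjusted p 0.804). Lamc1, the gamma chain that nidogens bind, read 311, 356 and 278 CPM in the controls and 369, 363 and 306 CPM with Axin1 overexpression. Control 3 was its lowest library, and controls 1 and 2 lay above Axin1 library 3 (log2 fold change 0.14, 95% confidence interval -0.15 to 0.43, edgeR adjusted p 0.638). Lamb2, a chain known from mature vessels and synapses, read 18.7, 14.4 and 21.3 CPM in the controls and 16.7, 23.1 and 23.7 CPM with Axin1 overexpression. The groups of Lamb2 overlapped (log2 fold change 0.22, 95% confidence interval -0.27 to 0.72, edgeR adjusted p 0.648).

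**Figure D3:**
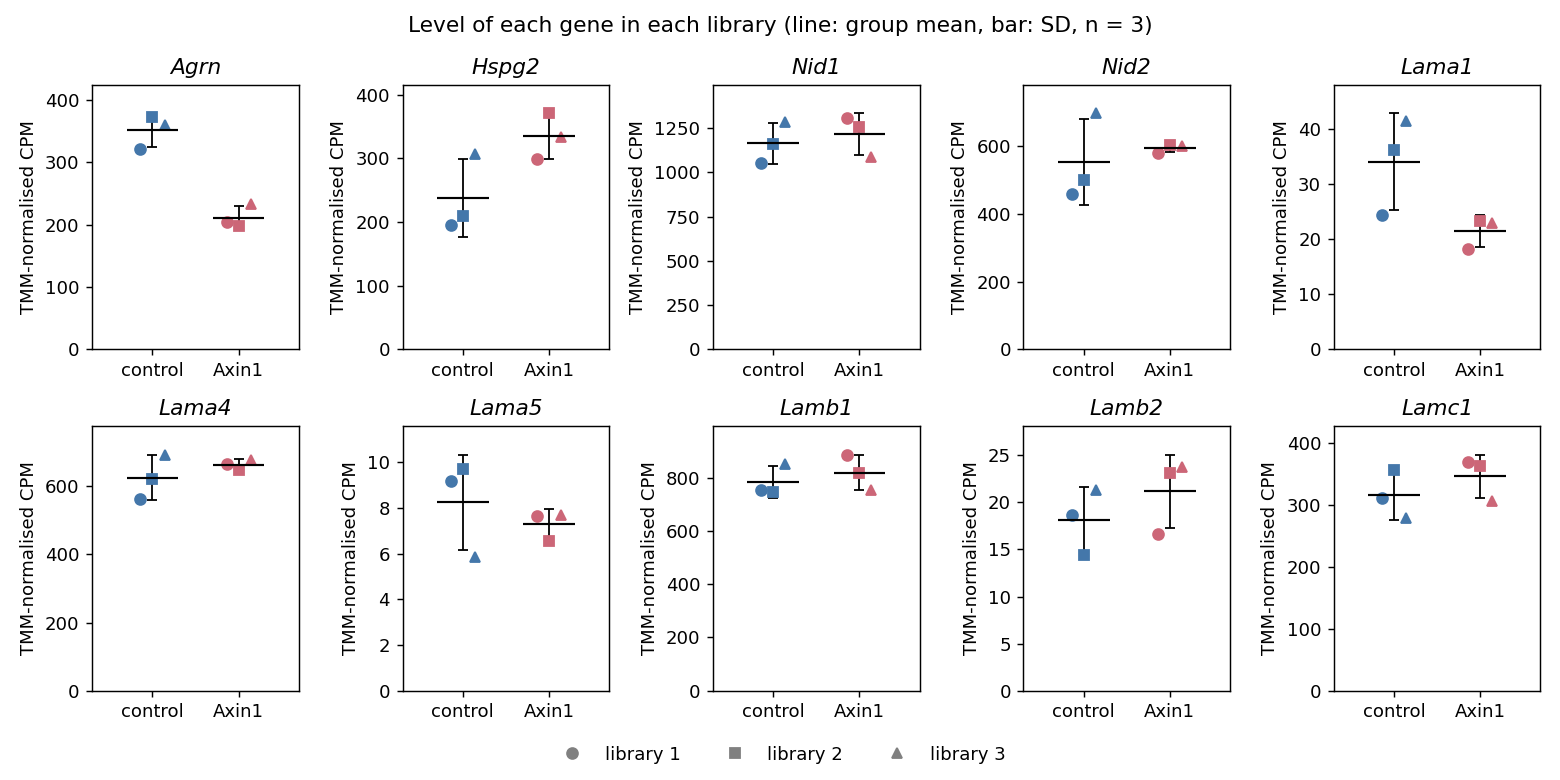
TMM-normalised CPM of each gene in each library, with 1 symbol per library, the group mean as a line and the SD as a bar (n = 3 each); each panel has its own axis from 0. Agrn (197 to 233 against 321 to 373 CPM) and Lama1 (18.2 to 23.4 against 24.4 to 41.6 CPM) are the 2 genes whose Axin1 libraries all lie below the controls.

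All 10 genes passed the filter on low counts. By edgeR 1 of the 10 was lower, where 0.49% of all tested genes were, and 0 were higher, where 0.355% were. At an unadjusted p under 0.05, edgeR had 2 of the 10 lower (Agrn, Lama1) and 1 higher (Hspg2), where 8.14% of all tested genes were lower and 9.06% higher. Groups did not overlap for 2 of the 10 with the Axin1 libraries lower (12.4% of all tested genes) and for 0 with the Axin1 libraries higher (11.3%). DESeq2 called 1 of the 10, Agrn, and 5.69% of all genes. Without control 3 edgeR called 2 of the 10, Agrn lower and Hspg2 higher, where it called 5.37% of all tested genes. The median log2 fold change of the 10 was 0.07, against 0.02 over all tested genes. Of the 10, 7 were positive, as were 6648 of all 12661 tested genes. CPM summed over the 10 genes was 4090 ± 421 in the controls and 4237 ± 168 in the Axin1 libraries.

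The 10 transcripts are long, and log2 fold changes over all genes varied with length. The median was -0.08 for 4164 tested genes under 2000 bases, 0.04 for 6449 genes of 2000 to 5000 bases and 0.12 for 2048 genes of at least 5000 bases. All members but Nid2 fell in the last class. With an offset fitted on length, the log2 fold change of Agrn was -0.87 (edgeR adjusted p 0.0126), that of Lama1 -0.79 (0.0946) and that of Hspg2 0.33 (0.35). Under this offset Nid1, Lama4, Lamb1 and Lamc1 had values of -0.052, -0.039, -0.056 and -0.0020, on the other side of 0 from the fit without it.

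**Figure D4:**
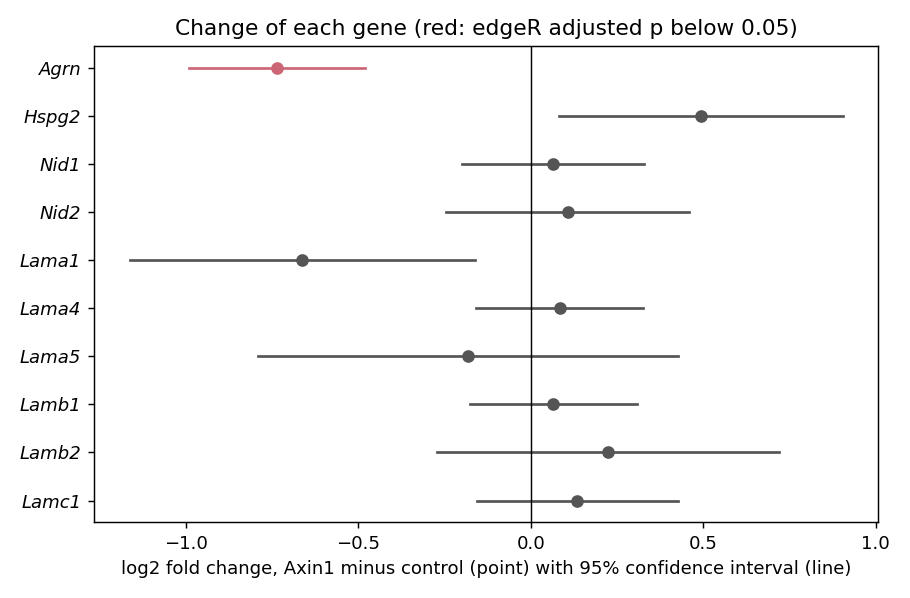
log2 fold change of each gene, Axin1 minus control, from edgeR (points) with its 95% confidence interval (lines), from 3 libraries a group; red marks an adjusted p below 0.05. Agrn at -0.73 is the gene that passed; Hspg2 (0.49) and Lama1 (-0.66) have intervals that exclude 0 and adjusted p values of 0.218 and 0.182.

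The laminin transcripts were almost entirely those of 1 alpha, 1 beta and 1 gamma chain in both groups. Lama4 made up 95.7% ± 0.40 of the summed alpha chain RPKM in the controls and 97.0% ± 0.41 in the Axin1 libraries. Lamb1 made up 97.7% ± 0.33 and 97.4% ± 0.67 of the beta chains, and Lamc1 made up 97.9% ± 1.52 and 97.1% ± 1.37 of the gamma chains. The share of Lama1 was 2.64%, 3.54% and 3.63% in the controls and 1.69%, 2.23% and 2.09% with Axin1 overexpression. Every Axin1 library thus lay below every control in this share. Lama5 held 0.68% ± 0.22 and 0.56% ± 0.04 of the alpha chains.

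Summed by class, the chains were not present in equal amounts. Alpha chains summed to 2.60 ± 0.49 times the gamma chain RPKM in the controls and to 2.44 ± 0.28 times in the Axin1 libraries, and beta chains to 3.34 ± 0.61 and 3.13 ± 0.11 times. The 2 nidogens together reached 7.74 ± 1.85 and 7.31 ± 0.25 times the gamma chain RPKM. These 3 ratios differed between the groups by less than the SD of the controls. RPKM measures transcripts, and protein was not measured.

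Ratios between 2 members of the same library do not depend on the scaling of that library. Agrn to Hspg2 was 3.40, 3.69 and 2.42 in the controls and 1.41, 1.10 and 1.45 with Axin1 overexpression, a 2.38-fold lower geometric mean. Agrn to Lamc1 was 1.15, 1.17 and 1.44 in the controls and 0.615, 0.606 and 0.848 in the Axin1 libraries, 1.83-fold lower. Lama1 to Lama4 was 0.0275, 0.0371 and 0.0381 in the controls and 0.0174, 0.0230 and 0.0215 in the Axin1 libraries, 1.65-fold lower. The groups did not overlap in these 3 ratios.

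Each of the 3 had a two-sided p of 0.1 in the exact permutation test over libraries, the smallest p that 3 against 3 allows, and 0.2 after Benjamini-Hochberg adjustment over the 6 ratios. In the other 3 ratios the groups overlapped. Lama4 to Lama5 had geometric means of 146 and 172 (exact permutation p 0.4), Lamb1 to Lamb2 of 42.6 and 38.1 (exact permutation p 0.6), and Nid1 to Nid2 of 1.64 and 1.57 (exact permutation p 0.5). This design cannot pass a threshold of 0.05 for any ratio.

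**Figure D5:**
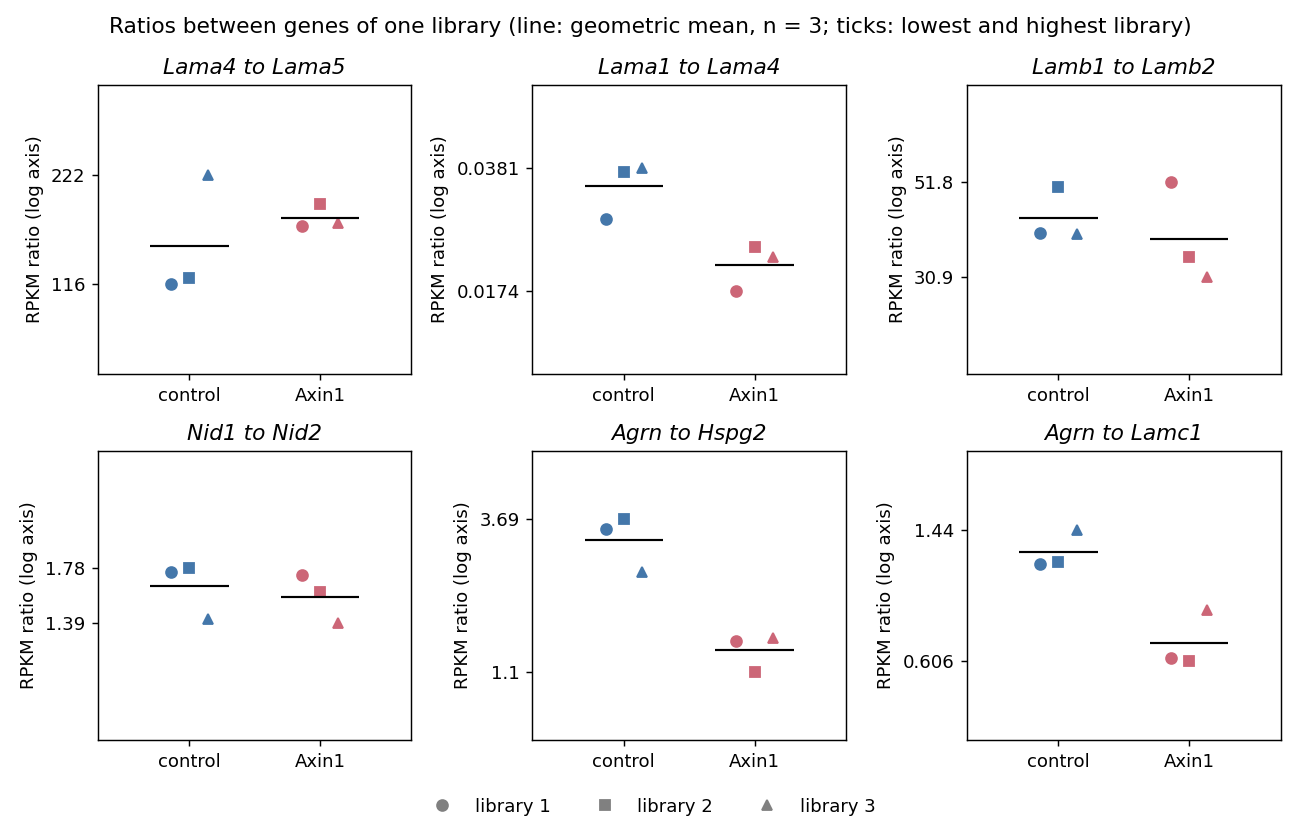
RPKM ratio of 2 genes within each library (log axis, tick labels at the lowest and highest library), with 1 symbol per library and the geometric mean of 3 as a line. The groups separate for Lama1 to Lama4, Agrn to Hspg2 (1.10 to 1.45 against 2.42 to 3.69) and Agrn to Lamc1 (0.606 to 0.848 against 1.15 to 1.44), and overlap in the other panels.

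The laminin chains outside the set were rare. Of 8 other laminin and netrin chains 4 passed the filter and 0 passed edgeR's test, also at an unadjusted p under 0.05, or that of DESeq2. Lama2 stood at 0.94 ± 0.59 and 1.96 ± 0.67 CPM and Lama3 at 3.07 ± 0.37 and 2.37 ± 1.76 CPM in the controls and the Axin1 libraries. Lamc3 reached 3.68% of the gamma chain RPKM in control 3, against 0.322% and 0.954% in controls 1 and 2.

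Among 16 tested genes of other basement membrane proteins, 3 fell and 0 rose by edgeR (0.49% and 0.355% of all tested genes). The median log2 fold change of the 16 was -0.12. At an unadjusted p under 0.05 edgeR had 2 of the 16 higher and 5 lower (9.06% and 8.14% of all tested genes). Sparc, a collagen-binding matricellular protein, fell by 0.47 on the log2 scale, from 4970 ± 73.4 to 3597 ± 133 CPM (edgeR adjusted p 0.0492). Fibronectin (Fn1), a ligand of integrins, fell by 0.70 (edgeR adjusted p 0.0438), and Ecm1, a secreted protein that binds perlecan, fell by 0.57, from 635 ± 21.0 to 428 ± 35.8 CPM (edgeR adjusted p 0.0492). DESeq2 called 5 of this list lower and 1 higher (2.52% and 3.17% of all tested genes). Without control 3 edgeR called 4, where it called 5.37% of all tested genes, and without any 1 of the other 5 libraries it called 0. The number called was 1 with RLE scaling and 0 with limma on log2 RPKM.

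None of the 23 tested receptors and anchors passed edgeR's test over all genes. Their median log2 fold change was 0.17, and the groups did not overlap for 6 with the Axin1 libraries higher and 0 with them lower (11.3% and 12.4% of all tested genes). The sarcoglycan gene Sgcb (log2 1.14, edgeR adjusted p 0.0616), the laminin receptor subunit gene Itga6 (0.47, 0.0863) and the syndecan gene Sdc1 (0.57, 0.191) had the smallest p values. At an unadjusted p under 0.05 edgeR had 5 of the 23 higher and 2 lower (9.06% and 8.14% of all tested genes), and DESeq2 called 2, both higher (3.17% of all tested genes).

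Genes that build the sugar chains of these proteins did not pass edgeR's test either: 0 of 24 for heparan sulphate and 0 of 16 for the glycans of dystroglycan. Their median log2 fold changes were -0.07 and -0.09. Papss1, which makes the sulphate donor, stood at 183 ± 6.57 and 136 ± 3.20 CPM (edgeR adjusted p 0.083), and the chain polymerase genes Ext2 and Ext1 had log2 fold changes of -0.57 and 0.31 (edgeR adjusted p 0.201 and 0.351). For dystroglycan the smallest p values were those of Dpm3 (log2 -0.77), Rxylt1 (0.82) and Pomt1 (-0.36), at edgeR adjusted p values of 0.0817, 0.213 and 0.28. At an unadjusted p under 0.05 edgeR had 0 higher and 2 lower for heparan sulphate and 1 higher and 2 lower for dystroglycan, against 9.06% higher and 8.14% lower of all tested genes. DESeq2 called 1 gene in each of these lists, both lower (2.52% of all tested genes).

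Of 17 tested matrix-cleaving proteases 0 passed edgeR's test, and the median log2 fold change was 0.42. Adamts1, a secreted metalloprotease, stood at 97.3 ± 23.7 and 220 ± 57.2 CPM (edgeR adjusted p 0.0797), Mmp15 at 43.3 ± 5.67 and 64.8 ± 10.6 CPM (0.126) and Mmp2 at 108 ± 56.9 and 299 ± 64.0 CPM (0.15). At an unadjusted p under 0.05 edgeR had 5 of the 17 higher and 0 lower (9.06% and 8.14% of all tested genes), and DESeq2 called 3, all higher (3.17% of all tested genes). Limma on log2(RPKM + 1) called 0 genes of this list, of the receptors, of both sugar chain lists and of the other laminin and netrin chains, where it called 0.837% of all tested genes. Without control 3 edgeR called 2 of these proteases, 1 of the receptors and anchors and 1 in each sugar chain list. It called 0 of the other laminin and netrin chains there, and 5.37% of all tested genes. Macrophage markers, whose cells express several such proteases, summed to 1097, 1443 and 1100 CPM in the controls and 454, 2064 and 3664 CPM in the Axin1 libraries. In the Axin1 libraries Adamts1 read 265, 156 and 239 CPM, Mmp15 76.9, 61.0 and 56.6 CPM and Mmp2 323, 348 and 227 CPM. The part of macrophages in the protease values was not tested.

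By the likeness of log2 CPM over the 6 libraries, the genes most like Agrn among 10125 compared were Prune (Pearson r 0.999), Zer1 (0.996) and the reelin receptor gene Lrp8 (0.996), given as a description. Lrp8 fell from 105 ± 20.7 to 32.3 ± 9.63 CPM (edgeR adjusted p 0.0347). Prune stood at 65.8 ± 2.94 and 49.5 ± 1.96 CPM and Zer1 at 6.95 ± 0.19 and 5.17 ± 0.31 CPM, with edgeR adjusted p values of 0.128 and 0.409. These 6 points share the separation of the groups, and so many genes were compared that high values arise easily.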

How the data were processed

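Per the file headers, the authors deposited for every library the read count and the RPKM value of 22958 RefSeq entries. Bowtie and mm9 are named in the submitters' processing notes, while the counter, its strand setting and its handling of multiply matching reads were not given in the sources used here. For all 10 members the reads-to-RPKM ratio differed between libraries by a common factor within 1%. Counts were tested as deposited with edgeR 4.0.16 (R 4.3.3; quasi-likelihood, robust, TMM, filterByExpr with a minimum count of 10, Benjamini-Hochberg over 12661 genes, threshold 0.05). No covariate was used. The SE was the log2 fold change over the square root of F. RPKM values, deposited by the authors, served for levels between genes, shares and ratios. Alternatives were DESeq2 1.42.0, limma 3.58.1 on log2(RPKM + 1) and log2(RPKM + 0.1), RLE scaling, other filters, a length offset (length from reads over RPKM), replicate blocks and leaving out each library. Libraries of a group differed by more than sampling noise in every pair (15.9 to 46.5 chi-square units per degree of freedom).

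Members and lists were chosen with earlier results of these data known. Named genes are the members, Axin1, in each other list those past the threshold or else up to 3 with the smallest p, the 3 most like Agrn with a mean of at least 5 CPM, and the 2 highest markers; Pdgfrb, Kcnj8, Des, Twist1, Cdh5, Robo4, Esam and Lamc3 were named after their values were seen. Of 204 list entries 7 matched by an older symbol and 2 were not matched. The reference annotation is of another build than mm9, so coordinates are given for promoters on GRCm38.p6 alone. One gene that this rule names is not reported here.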

Additional observations from a re-analysis of the deposited data

How the results depend on the processing

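Over the whole table edgeR called 107 genes; DESeq2 called 720, the fit without a low-count filter 197, and fits that left out 1 library 0 to 695. The count of 0 arose without control 2 and without Axin1 library 2, where 1539 and 1733 genes had an unadjusted edgeR p under 0.05. Without control 1, Axin1 library 1 or Axin1 library 3 it was 10, 33 or 18, and without control 3 it was 695. In the fits that left out 1 library the number of the 10 genes called lower was 0 to 1 and the number called higher 0 to 1. Agrn had log2 fold changes of -0.81 to -0.69 there and Axin1 1.60 to 1.85, where Axin1 had edgeR adjusted p values of 0.0915 (control 2 left out) and 0.0721 (Axin1 library 2 left out). Agrn passed in 10 of 15 alternatives and Hspg2 in 2.

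The labels give both groups the numbers 1 to 3 but name no pairs, so the main test used none. Deviations of same-numbered libraries from their group means correlated at 0.23, 0.15 and -0.02, which does not exclude pairing. The first 2 of these pairs also share a number in their titles, which the labels do not explain, and crossed they correlated at -0.25 and -0.22; the third pair shares none. With the numbers 1 to 3 as a block the log2 fold change of Agrn was -0.73 (edgeR adjusted p 0.0448) and 105 genes were called. In the 4 libraries whose title numbers occur in both groups, with that number as a block, 1500 genes (11.9%) were called, among them Agrn lower and 1 of the 10 higher, Hspg2 (log2 0.71, edgeR adjusted p 4.0e-04). That fit leaves out control 3.

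Small values changed sign without having passed. Without control 1 the log2 fold changes of Nid1 and Nid2 were -0.0074 and -0.012, and over the fits without 1 library they ranged from -0.0074 to 0.14 and from -0.012 to 0.30. With the length offset Nid1, Lama4, Lamb1 and Lamc1 had -0.052, -0.039, -0.056 and -0.0020. The log2 change of the ratio of Nid1 to Nid2 ranged from -0.17 without control 3 to 0.020 without Axin1 library 3. The cause of these shifts was not tested. Depth limits Lama5, with 64 to 127 reads per library.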
